A study of Rattus norvegicus with 6 samples.

Results

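The genes described here are 32 markers of macrophages, neutrophils, leukocytes in general and antigen presentation, measured in rat renal cortex. They were chosen by name, and a member was any gene of the list whose probe accession on the array matched that rat RefSeq symbol. All 32 were on the array, with 51 probes between them, and 30 passed the filter on dim signal among 31087 genes tested. They were grouped by role into 12 macrophage genes, 10 genes shared by macrophages and neutrophils, and 2 genes, S100a8 and S100a9, labelled neutrophil. The rest were 6 genes carried by nearly all leukocytes and 2 genes of antigen presentation. The samples came from male Sprague-Dawley rats, purchased at 5 weeks of age. The control group was 3 rats given water for 4 weeks, and the other group was 3 rats dosed over the same 4 weeks with o-anisidine hydrochloride, 700 mg/kg/day, with 1 single-colour (Cy3) Agilent array per rat. o-Anisidine is an aromatic amine. The comparison asks whether the renal cortex carried more or less RNA of these immune cells after the treatment.

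Macrophages are the most common leukocytes of the healthy kidney, where they lie between the tubules, depend on the growth factor receptor encoded by Csf1r, take up debris and make the C1q chains of complement. Neutrophils are short-lived blood cells whose cytosol is packed with the calcium-binding proteins encoded by S100a8 and S100a9, which form calprotectin. Macrophages and dendritic cells show peptides to T cells on class II molecules of the major histocompatibility complex (MHC), which in the rat are encoded by the RT1 genes. The invariant chain, encoded by Cd74, guards the groove of a class II molecule until the protease cathepsin S, encoded by Ctss, cuts it away.

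Promoter windows are printed for 4 genes on which the results turn, S100a9 among the neutrophil genes and Cd74, RT1-DMa and RT1-Db1 among those of class II presentation. They come from RefSeq on the GRCr8 build, each of 300 bases, running from 250 before the annotated start to 50 after it, read on the gene's strand. The table held windows for 21 of the 32 members. Capitals mark the letters GGAAGT (the core bound by ETS factors, the family of PU.1) in S100a9 and the letters ATTGG or its reverse CCAAT in the class II genes, and in RT1-Db1 the first run is the longer Y box letters CTGATTGG.
S100a9, chr2:178490573-178490872, minus strand: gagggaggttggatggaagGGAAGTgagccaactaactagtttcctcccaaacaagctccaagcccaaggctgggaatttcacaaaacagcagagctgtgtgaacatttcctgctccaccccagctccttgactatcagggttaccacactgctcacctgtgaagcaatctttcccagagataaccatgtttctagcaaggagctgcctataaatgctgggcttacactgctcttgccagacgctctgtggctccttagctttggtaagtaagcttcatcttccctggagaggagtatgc
Cd74, chr18:56526956-56527255, plus strand: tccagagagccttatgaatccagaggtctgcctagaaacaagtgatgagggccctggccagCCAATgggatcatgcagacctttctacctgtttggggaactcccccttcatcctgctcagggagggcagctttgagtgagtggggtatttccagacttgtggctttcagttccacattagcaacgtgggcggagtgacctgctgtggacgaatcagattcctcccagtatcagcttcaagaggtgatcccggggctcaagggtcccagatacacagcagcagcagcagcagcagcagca
RT1-DMa, chr20:4712286-4712585, minus strand: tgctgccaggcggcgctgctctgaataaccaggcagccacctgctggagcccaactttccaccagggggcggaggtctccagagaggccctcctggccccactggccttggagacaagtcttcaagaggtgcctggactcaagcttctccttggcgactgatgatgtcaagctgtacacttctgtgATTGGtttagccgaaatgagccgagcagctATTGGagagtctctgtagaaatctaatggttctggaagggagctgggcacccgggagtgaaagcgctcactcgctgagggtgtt
RT1-Db1, chr20:4560113-4560412, minus strand: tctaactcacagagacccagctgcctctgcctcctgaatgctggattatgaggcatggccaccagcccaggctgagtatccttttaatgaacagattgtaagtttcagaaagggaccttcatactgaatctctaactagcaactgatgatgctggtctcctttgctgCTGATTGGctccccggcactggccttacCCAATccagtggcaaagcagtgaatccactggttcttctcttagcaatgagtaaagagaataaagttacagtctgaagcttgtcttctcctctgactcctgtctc

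GGAAGT, searched on both strands, was in 10 of the 21 member windows (47.6%) and in 22.6% of all 33469 windows of that length. The longer PU.1 letters GAGGAAGT, which contain GGAAGT, were in the windows of Cd53 and Ctss only among the 21, and in 2.42% of all windows. TTGCNNAA, a form of the C/EBP site, was in 4 of 21, those of Adgre1, Itgam, Lyz2 and Trem2, and in 10.6% of all. The Y box letters CTGATTGG were in 6 of the 9 windows of Cd74 and the RT1 class II genes and in 3.5% of all windows, and ATTGG, which is contained in them, was in 9 of 9 and in 37.5% of all. These matches describe letters in the windows and show no binding.

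After o-anisidine, the macrophage and general leukocyte genes of the cortex had median log2 changes near 0, with treated arrays on both sides of the controls, while S100a8 and S100a9 stood 2.57-fold and 2.59-fold above control. No member passed the threshold of an adjusted p of 0.05 (limma with Benjamini-Hochberg adjustment over all 31087 genes, two-sided), where 0.0611% of all genes tested did (0.0354% higher and 0.0257% lower). An unadjusted p under 0.05 was reached by 3 of the 30 on the higher side, S100a9, S100a8 and Cd14, and by Aif1 on the lower side, where 6.36% of all genes were higher and 5.14% lower at that level. The trend and robust variance model also called 0 members. The groups did not overlap, with every treated array above every control array, for 4 members (S100a8, S100a9, Cd14 and Cd74), and for 9.55% of all genes. They did not overlap in the other direction for Aif1 alone, against 8.88% of all genes.

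The median log2 change of the 30 members was -0.02, with 12 above 0 and 18 below, beside a median of 0.00 over all genes tested, 50.9% of which lay above 0. By role, the median log2 change was -0.04 for 11 macrophage genes, -0.02 for 9 shared myeloid genes, -0.07 for 6 general leukocyte genes, 0.25 for the antigen presentation pair and 1.37 for the neutrophil pair. A change of 1.5-fold or more was fitted for 4.67% of all genes tested and for S100a8 and S100a9 among the 30. Both were also at least 2-fold higher, as were 0.952% of all genes. The 95% interval of the difference lay inside 2-fold in both directions for 27 members, the exceptions being S100a8, S100a9 and Msr1. Smaller changes were inside the interval for most, so the p-values do not show that these genes were level. In a bulk sample such as this, fewer cells of a type and less RNA per cell cannot be told apart.

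**Figure D1:**
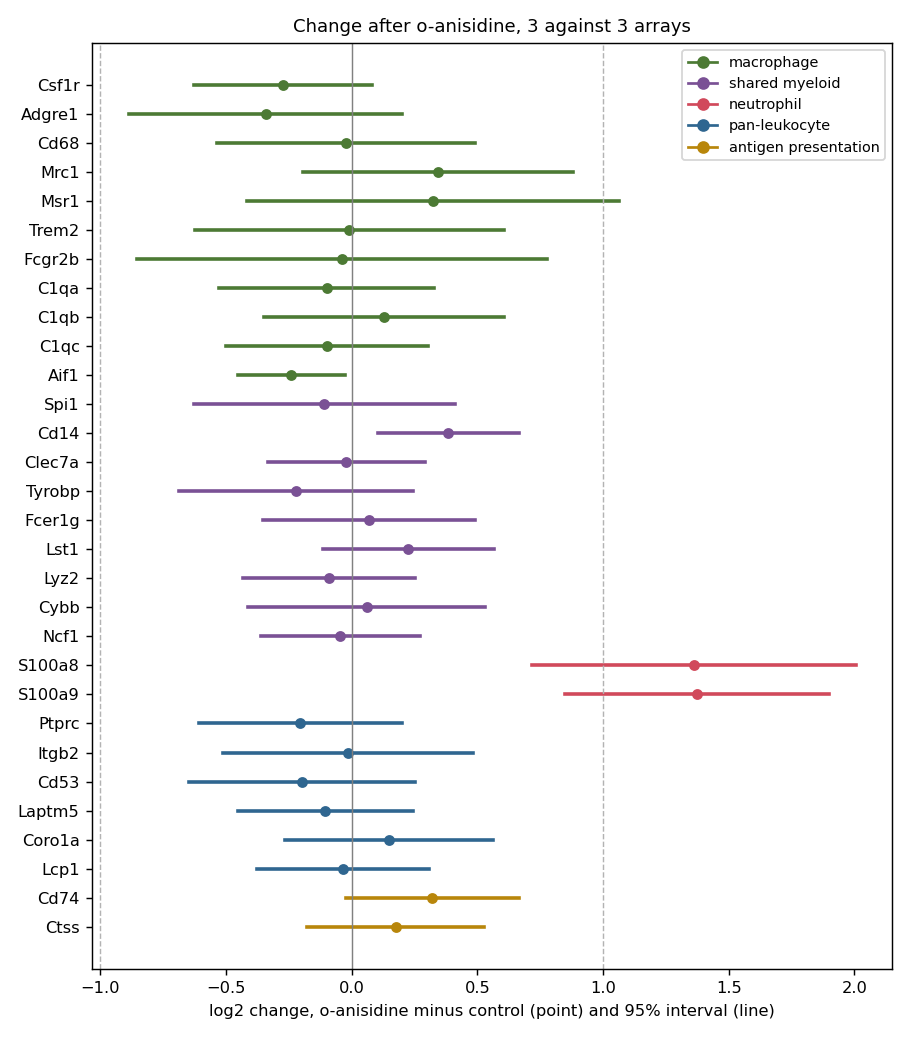
Log2 change after o-anisidine (horizontal axis, o-anisidine minus control) for the 30 members tested, as points coloured by role with 95% intervals from the moderated fit as lines, and dashed lines at 2-fold. S100a8 and S100a9 lie at 1.36 and 1.37, and the other 28 members lie between -0.34 and 0.38.

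S100a8 and S100a9 encode the chains of calprotectin. On the scale of log2 signal relative to the array's 75th percentile, used for all levels here, S100a8 was at -2.17, -2.81 and -3.08 on control 1, 2 and 3 and at -1.19, -1.66 and -1.12 on o-anisidine 1, 2 and 3. The groups did not overlap, and control 1 was the highest control. Its log2 change was 1.36 (SE 0.26, 95% interval 0.72 to 2.01, adjusted p = 0.155 by limma with Benjamini-Hochberg adjustment). S100a9 was at -1.27, -1.74 and -2.04 on the controls and at -0.07, -0.40 and -0.46 after o-anisidine. Every treated array again exceeded every control, and control 1 was again the highest control. Its log2 change was 1.37 (SE 0.22, 95% interval 0.85 to 1.90, adjusted p = 0.115). Changes at least as high were fitted for 0.505% of all genes tested in the case of S100a8 and 0.492% in that of S100a9. Each had 1 probe.

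A single slide held every control together with o-anisidine 3, and the remaining treated arrays lay on another. With slide as a block, which gives the same estimate as the slide with both groups alone, the log2 change was 1.56 for S100a8 and 1.22 for S100a9 (adjusted p = 0.321 and 0.336, limma). Over 16 alternative settings the log2 change of S100a8 ran from 0.97 to 1.62 with adjusted p from 0.105 to 0.375, and that of S100a9 from 1.20 to 1.58 with adjusted p from 0.0551 to 0.376.

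Other neutrophil genes were in part too dim to test. Of 15 further neutrophil genes listed, 13 were on the array, and the 5 tested had a median log2 change of 0.31. The elastase gene Elane, the granule genes Ngp, Ltf and Mmp8, the chemokine receptors Cxcr1 and Cxcr2 and the granulocyte factor Cebpe were not well above background on any of the 6 arrays by their brightest probe. The receptor gene Fpr1 was well above background on 1 control array and 2 treated arrays. None of the 5 tested passed the threshold, 3 lay above 0, and the groups did not overlap for 2, Lcn2 and Camp, both higher (9.55% of all genes on that side). Lcn2, which encodes a siderophore-binding protein also made by injured tubules, had the smallest p of the 5. It was at -2.24, -1.87 and -2.78 on the controls and at -0.84, -1.80 and -1.09 after o-anisidine, so that o-anisidine 2 lay just above control 2 (log2 change 1.06, SE 0.32, adjusted p = 0.328). Camp, which encodes the antimicrobial peptide cathelicidin, lay higher by 0.40 (log2) without overlap of the groups (SE 0.16, adjusted p = 0.431) and gave 0.73 with slide as a block. Csf3r, the receptor of the granulocyte growth factor, had 0.31 (adjusted p = 0.653), Prtn3, a granule protease, had -0.04 (adjusted p = 0.914), and Mmp9, a gelatinase, had -0.72 (adjusted p = 0.614).

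Red cell genes, like S100a8 and S100a9, were higher in the treated group. All 12 of 14 listed red cell genes that were tested lay above 0, 11 of them without overlap of the groups (9.55% of all genes on that side), with a median log2 change of 1.46, or 1.00 with normexp background correction. Past the threshold were 4 (0.0354% of all genes on that side), namely Ahsp, a chaperone of globin, Rhd and Kel, blood group proteins, and Hemgn, an erythroid nuclear protein. That list's median shift, taken against the mean of the controls, was -0.12 to -0.02 on the controls and 1.43 to 1.64 after o-anisidine, beside -0.37 to 0.46 and 1.16 to 1.56 for the neutrophil pair. Of the T and natural killer cell markers, 11 of 13 tested lay below 0, with a median log2 change of -0.31 (-0.14 with normexp) and 0 past the threshold. Below every control lay 4 of the 13 (Lck, Zap70, Nkg7 and Prf1), beside 8.88% of all genes. The median shift of these markers was -0.08 to 0.11 on the controls and -0.41 to -0.06 after o-anisidine. The platelet list had a median of 0.27 over 4 genes and the B cell list -0.15 over 3, with 0 past the threshold in either. Which cells carried the RNA of S100a8 and S100a9 was not tested, nor was the part of other blood cells in their values.

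**Figure D2:**
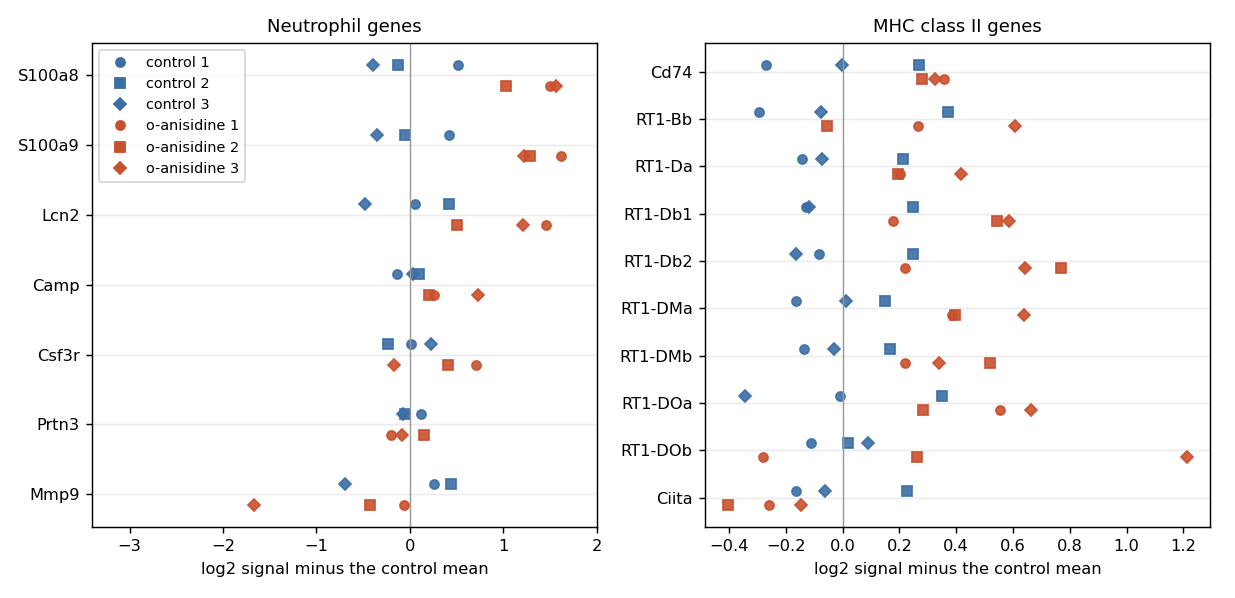
Log2 signal minus the control mean (horizontal axes) on each of the 6 arrays for neutrophil genes (left) and MHC class II genes with Ciita (right), with blue symbols for controls and red for o-anisidine. All 3 treated points of S100a8 and S100a9 lie to the right of the controls, while Prtn3 and Mmp9 overlap, and the treated points of Cd74, RT1-DMa and RT1-DMb lie above their controls by narrower gaps.

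Among the macrophage genes, 3 of the 11 tested lay above 0 and 8 below, none past the threshold. Csf1r, the receptor of the macrophage growth factors, was at -0.99, -1.21 and -1.20 on the controls and at -1.13, -1.46 and -1.63 after o-anisidine. O-anisidine 1 lay inside the control range and o-anisidine 2 and 3 below it (log2 change -0.27, SE 0.15, adjusted p = 0.526). Its second probe gave 0.00. Adgre1, which encodes the macrophage surface protein F4/80, was at -0.16, -0.30 and -0.19 and then at -0.12, -1.03 and -0.52. Here too o-anisidine 1 was level with the controls and the other two were lower (log2 change -0.34, SE 0.22, adjusted p = 0.603). Aif1, which encodes the actin-binding protein IBA1, had the smallest p of the macrophage genes. It was at 3.36, 3.41 and 3.25 on the controls and at 3.18, 2.98 and 3.13 after o-anisidine, all 3 below every control by a small margin. The log2 change was -0.24 (SE 0.09, adjusted p = 0.395), but its other 2 probes gave -0.08 and 0.03, so the gap rests on 1 probe.

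Mrc1 and Msr1, which encode the mannose receptor and a scavenger receptor, had the largest positive changes of the macrophage genes. Mrc1 was at -2.56, -2.72 and -2.03 on the controls and at -1.77, -2.24 and -2.25 after o-anisidine, with control 3 inside the treated range (log2 change 0.34, SE 0.22, adjusted p = 0.597). Its second, dimmer probe gave 0.76. Msr1 was at -4.51, -5.47 and -4.66 and then at -4.92, -4.59 and -4.16, with overlapping groups (log2 change 0.32, SE 0.30, adjusted p = 0.717). Marco, another scavenger receptor, was not well above background on any array.

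The genes of the C1q chains gave the same order of the treated arrays. C1qa was at 2.18, 2.08 and 1.89 on the controls and at 2.23, 1.60 and 2.02 after o-anisidine. C1qb was at 3.38, 2.98 and 3.22 and then at 3.67, 2.98 and 3.31, and C1qc at 0.52, 0.33 and 0.28 and then at 0.58, -0.02 and 0.28. For all 3, o-anisidine 1 was the highest and o-anisidine 2 the lowest treated array, and the groups overlapped. Their log2 changes were -0.10, 0.13 and -0.10, with 95% intervals of -0.53 to 0.33, -0.35 to 0.61 and -0.50 to 0.30. The second probes of C1qa, C1qb and C1qc gave -0.11, 0.12 and -0.11. Cd68, a lysosomal glycoprotein of phagocytes, had a log2 change of -0.02 (95% interval -0.53 to 0.49) and 0.07 by its second probe. Trem2, a lipid-sensing receptor, had -0.01 (-0.62 to 0.61), and Fcgr2b, the inhibitory receptor for IgG and one of several related Fc receptor genes, had -0.04 (-0.85 to 0.78) and 0.19 by its second probe.

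Of the genes shared by macrophages and neutrophils, 9 were tested, with 4 above 0 and 5 below. Cd14, the co-receptor for bacterial lipopolysaccharide, had the smallest p. It was at -0.42, -0.81 and -0.68 on the controls and at -0.34, -0.23 and -0.19 after o-anisidine, with o-anisidine 1 just above control 1. The log2 change was 0.38, or 1.31-fold (SE 0.12, 95% interval 0.10 to 0.67, adjusted p = 0.323), and 0.45 with slide as a block, while a second, dimmer probe gave 0.11. Lst1, a leukocyte membrane protein, was at -2.91, -2.72 and -3.23 and then at -2.67, -2.81 and -2.69. The groups overlapped at control 2 (log2 change 0.23, SE 0.14, adjusted p = 0.584).

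Tyrobp, the adaptor DAP12 through which Trem2 signals, had the most negative change of the shared genes. It was at 3.41, 3.28 and 3.33 on the controls and at 3.55, 3.00 and 2.81 after o-anisidine. O-anisidine 1 lay above the controls and the other two below them (log2 change -0.22, SE 0.19, adjusted p = 0.692), and with slide as a block the value was -0.53. Spi1, which encodes the lineage factor PU.1, was at -3.68, -3.83 and -3.99 and then at -3.61, -4.40 and -3.82, with overlapping groups (log2 change -0.11, SE 0.21, adjusted p = 0.873). Itgam, the integrin chain CD11b, was well above background on 2 control arrays and 1 treated array and was not tested. The remaining 5 were Clec7a (the beta-glucan receptor dectin-1), Fcer1g (the signalling chain of Fc receptors), Lyz2 (lysozyme), Cybb and Ncf1 (subunits of the phagocyte oxidase). Their log2 changes were -0.02, 0.07, -0.09, 0.06 and -0.05 in that order, and the second probe of Fcer1g gave -0.05. Lyz2 had a 95% interval of -0.43 to 0.25, and its second probe gave -0.08.

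The 6 general leukocyte genes had 1 value above 0 and 5 below. Ptprc, which encodes CD45, the phosphatase on all leukocytes, had the smallest p of these. It was at 0.21, 0.08 and 0.01 on the controls and at 0.17, -0.44 and -0.04 after o-anisidine, with o-anisidine 1 inside the control range (log2 change -0.20, SE 0.17, adjusted p = 0.673). Its other 4 probes gave changes from -0.26 to -0.09. Cd53, a tetraspanin, was at 1.23, 1.04 and 1.04 and then at 1.18, 0.50 and 1.04, with o-anisidine 2 the lowest array and the others within or beside the control range (log2 change -0.20, SE 0.18, adjusted p = 0.715). Coro1a, an actin regulator, was at 2.30, 2.17 and 2.16 and then at 2.70, 2.04 and 2.34, so that the treated arrays lay on both sides of the controls (log2 change 0.15, SE 0.17, adjusted p = 0.771). Itgb2, the integrin chain that pairs with CD11b, had -0.01, Laptm5, a lysosomal membrane protein, had -0.10, and Lcp1, the actin-bundling protein L-plastin, had -0.04.

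**Figure D3:**
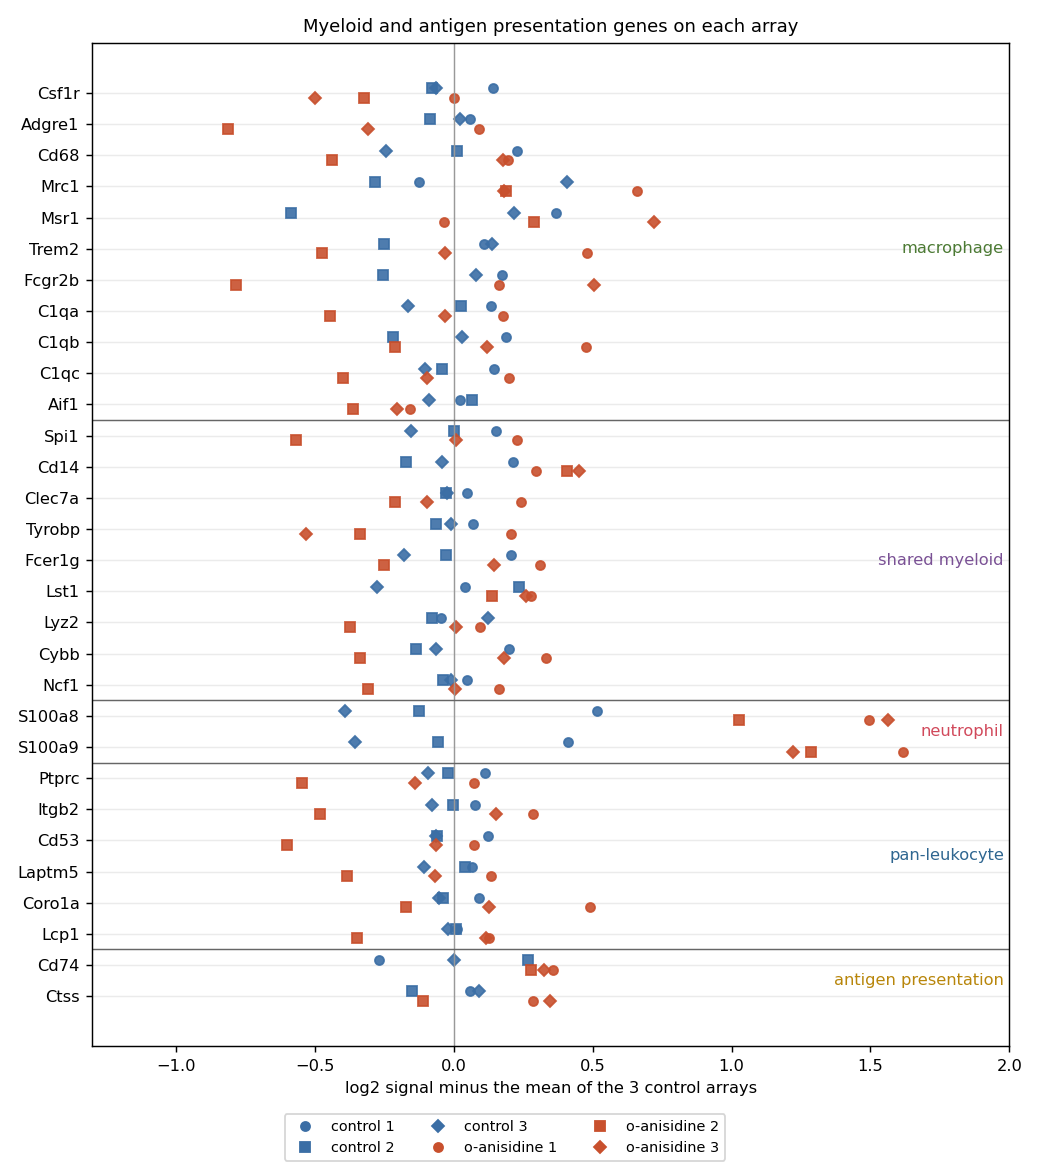
Log2 signal minus the mean of the 3 controls (horizontal axis) on each array for the 30 members tested, in rows grouped by role, with blue symbols for controls and red for o-anisidine. The red squares of o-anisidine 2 lie furthest left in most rows of the macrophage, shared myeloid and general leukocyte groups, and in most rows the red circles of o-anisidine 1 lie furthest right among treated arrays.

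The treated arrays were spread apart in the same order for most members. With the neutrophil pair set aside, o-anisidine 2 was the lowest of all 6 arrays for 19 of 28 members (67.9%), beside 13.9% of all genes tested. O-anisidine 1 was the highest treated array for 24 of the 28 (85.7%), beside 31.0% of all genes. Relative to the mean of the controls, the macrophage genes had a median shift of 0.18 on o-anisidine 1, -0.40 on o-anisidine 2 and -0.03 on o-anisidine 3, beside -0.08 to 0.14 on the controls. For the shared myeloid genes it was 0.24, -0.31 and 0.01, and for the general leukocyte genes 0.13, -0.43 and 0.03. Over all genes the treated shifts lay between -0.02 and 0.03. The same order held for dendritic cell genes (0.25, -0.65 and 0.09), other monocyte and macrophage genes (0.23, -0.19 and -0.01) and T and natural killer cell markers (-0.06, -0.41 and -0.26). It also held for the phagocyte oxidase, Fc receptor, class I and platelet lists. The endothelial list had it by a narrow margin (0.03, -0.08 and -0.07). The proximal tubule, podocyte, thick limb and distal tubule, collecting duct and fibroblast lists did not have it. The class II, neutrophil granule, macrophage activation, growth factor, B cell, mast cell and red cell lists had other orders. The neutrophil pair had median shifts of 1.56, 1.16 and 1.39, all 3 above the controls, but neither gene alone had the macrophage order. Among the treated arrays S100a8 was highest on o-anisidine 3, and S100a9 was lowest there. The members share arrays and, for many, the cells that express them, so these counts describe 6 arrays and are no test.

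Single arrays therefore decide the sign of the small group medians. Without o-anisidine 2 the median log2 change of the 30 members was 0.20 and that of the macrophage genes 0.19, and without o-anisidine 1 they were -0.14 and -0.24. Without control 1 they were 0.04 and 0.05. Without o-anisidine 2, 9 members lay above every control and 1 below (background 13.9% and 14.9%), and without o-anisidine 1 the counts were 4 and 7 (13.2% and 12.7%). On the slide with both groups, where 1 treated array stands against 3 controls, 11 members lay above every control and 7 below (background 25.2% and 31.7%), and the median of the 30 was 0.12. With the mean of all kept probes of a gene the counts were 4 and 0 (background 9.29% and 9.31%). No member passed the threshold in any of these.

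**Figure D4:**
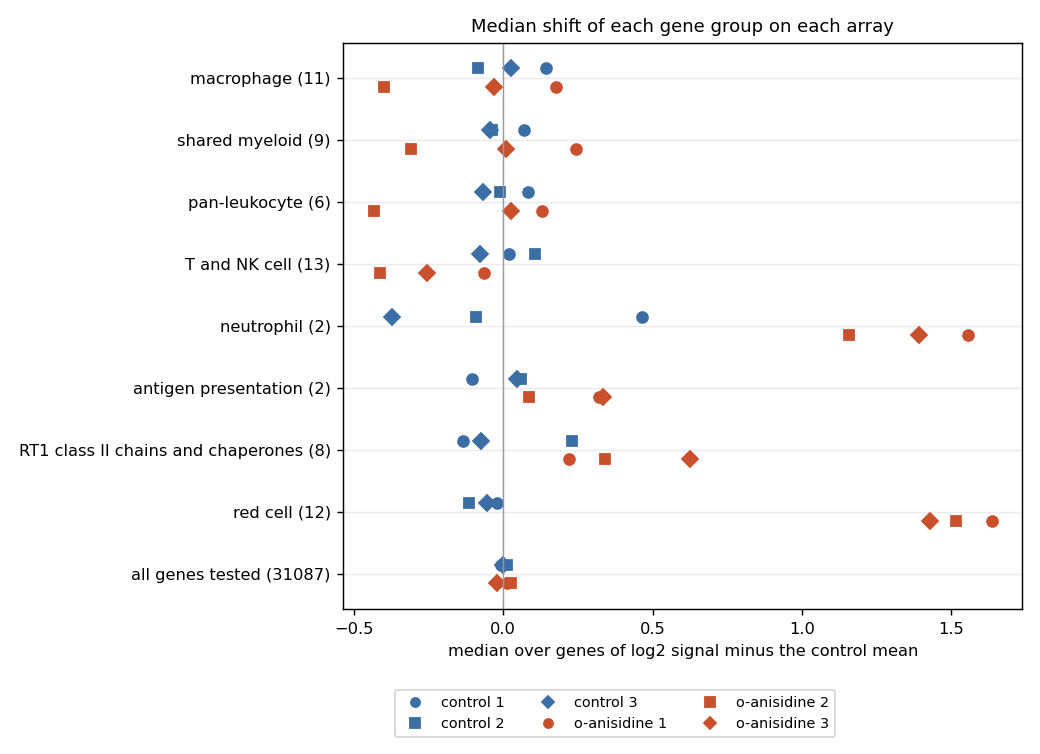
Median over the genes of each group of log2 signal minus the control mean (horizontal axis), on each of the 6 arrays, with the number of genes in brackets. The macrophage, shared myeloid and general leukocyte groups have o-anisidine 2 at -0.40, -0.31 and -0.43 and o-anisidine 1 above 0, while the neutrophil and red cell groups have all treated arrays above 1.

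The antigen presentation pair lay above 0. Cd74, the invariant chain, was at 4.99, 5.53 and 5.26 on the controls and at 5.62, 5.54 and 5.59 after o-anisidine. The treated values were close together and above all controls, but o-anisidine 2 exceeded control 2 by a margin that was lost with quantile normalization. The log2 change was 0.32, or 1.25-fold (SE 0.14, 95% interval -0.02 to 0.66, adjusted p = 0.453). It was 0.19 without control 1 and 0.46 without control 2. Ctss, cathepsin S, was at 2.32, 2.11 and 2.35 and then at 2.55, 2.15 and 2.61, with o-anisidine 2 inside the control range (log2 change 0.17, SE 0.14, adjusted p = 0.678). Its second probe gave 0.12.

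The RT1 class II genes, partners of Cd74, also lay above 0. Of 9 listed, 8 were tested and all 8 had a positive log2 change, from 0.27 to 0.54 with a median of 0.42, though none passed the threshold. An unadjusted p under 0.05 was reached by 5 of the 8, beside 6.36% of all genes on that side, and the groups did not overlap for 2, RT1-DMa and RT1-DMb, beside 9.55% of all genes. Like the members, these 8 share arrays and cells, and the counts are no test. RT1-DMa, a chain of the chaperone that exchanges the invariant chain's remnant for peptide, was at 1.52, 1.83 and 1.69 on the controls and at 2.07, 2.08 and 2.32 after o-anisidine. Each treated array exceeded every control (log2 change 0.47, SE 0.12, adjusted p = 0.245). Its second probe gave 0.50, and the slide block gave 0.64. RT1-DMb, the other chain, had 0.36 (SE 0.12, adjusted p = 0.360). RT1-Db1 and RT1-Db2, beta chains of the D molecule, had 0.44 and 0.54 (adjusted p = 0.394 and 0.361). RT1-DOa, which encodes a chain of the modulator of that chaperone, had 0.50 (adjusted p = 0.422).

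Over all 16 kept probes of these RT1 genes, 15 had a positive change, the exception being a probe of RT1-Db1 at -0.27. RT1 genes are a family of related sequences, so a probe may take up signal from more than 1 of them. The median shift of the 8 was -0.13, 0.23 and -0.07 on control 1, 2 and 3 and 0.22, 0.34 and 0.62 on o-anisidine 1, 2 and 3, so o-anisidine 1 overlapped control 2. Over 16 alternative settings the median log2 change stayed between 0.36 and 0.62. Ciita, the coactivator of class II genes, gave -0.27 (SE 0.13, adjusted p = 0.483) and -0.15 with slide as a block. The full class II list had 9 of 11 tested genes above 0 with a median of 0.36. It also held Ifi30 and Lgmn, a thiol reductase and a protease of the endosome, with log2 changes of -0.14 and 0.04. Ifi30 lay below every control, where 8.88% of all genes did. In class I presentation, 5 of 12 tested genes lay above 0 with a median of -0.03 and 0 past the threshold. The smallest p of these was that of Tapbp, the loading factor tapasin (log2 change 0.26, SE 0.10, adjusted p = 0.411). Of the 12, RT1-A1 alone lay above every control (log2 change 0.08), where 9.55% of all genes did.

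Further myeloid lists had medians from -0.16 (phagocyte oxidase) to -0.04, and no gene in them passed the threshold. Of 22 other monocyte and macrophage genes, 17 were tested with 6 above 0 and a median of -0.04. The smallest p was that of Slc11a1, a metal transporter of the phagosome, at a log2 change of 0.43 (SE 0.16, adjusted p = 0.408). Both Cd163 and Vsig4 were not well above background on any array by their brightest probe. The 3 tested partners of Cybb and Ncf1 in the phagocyte oxidase lay below 0, with Cyba at -0.20 (SE 0.07, adjusted p = 0.369). The Fc receptor list had 2 of 5 above 0, with Fcgrt, the transport receptor for IgG, at -0.20 (adjusted p = 0.406). The dendritic cell list had 2 of 5 above 0, with Ccr7, a chemokine receptor, at 0.38 (adjusted p = 0.519). The growth factor list had 2 of 4 above 0, with the chemokine gene Cx3cl1 at -0.21 (adjusted p = 0.373). Cyba, Fcgrt, Cx3cl1 and Csf1 (log2 change -0.29) lay below every control, where 8.88% of all genes did, and no gene of these lists lay above every control. The changes furthest from 0 in these lists were those of Gpnmb (0.88), Siglec1 (-0.70) and Fcer2 (0.66), with adjusted p of 0.459, 0.690 and 0.495 by limma.

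Arg1, which encodes arginase and is also made by some epithelia, had the smallest p among 8 tested genes of macrophage activation. It was at -2.89, -2.42 and -2.65 on the controls and at -1.60, -1.29 and -1.78 after o-anisidine. Arg1 was the 1 gene of the list above every control, where 9.55% of all genes lay. The log2 change was 1.09, or 2.13-fold (SE 0.17, adjusted p = 0.116), and 0.87 with slide as a block. In the other direction, 2 genes of the list lay below every control, where 8.88% of all genes did. One was the co-stimulatory receptor gene Cd40, whose log2 change was -0.48 (SE 0.12, adjusted p = 0.252). The inflammatory cytokine gene Il1b was the other, at -0.59 (SE 0.16, adjusted p = 0.295). Over the 8 genes 3 lay above 0, and the median was -0.03.

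The tissue carried its defining markers. The proximal tubule phosphate transporter gene Slc34a1 lay between 8.33 and 8.58 on the 6 arrays and the tubule gene Umod between 8.55 and 8.91. The median log2 change was 0.04 over 8 proximal tubule markers, -0.14 over 4 podocyte, 0.02 over 5 endothelial and -0.24 over 6 fibroblast markers. It was 0.00 over 3 thick limb and distal tubule markers and -0.22 over 4 collecting duct markers, with 0 past the threshold in any list. Lrp2 of the proximal tubule, Podxl of the podocyte, Aqp2 of the collecting duct and Emcn of the endothelium lay below every control. Of all genes, 8.88% did. Aqp2 had a log2 change of -0.58 (adjusted p = 0.412 by limma), Lrp2 -0.20, Podxl -0.31 and Emcn -0.22. The collecting duct shifts on o-anisidine 1, 2 and 3 were -0.43, -0.08 and -0.15, and the podocyte shifts -0.39, -0.03 and -0.01. Between 41670 and 43630 probes were well above background per array and no probe was saturated. With 3 arrays a group, their number limits the precision of every value here.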

How the data were processed

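Renal cortex RNA of 6 rats was measured on 1 array each. Per the file headers, the deposited intensity of each spot was background subtracted and detrended by Agilent Feature Extraction 10.7.1.1, without scaling between arrays. The authors' own table holds the same intensity divided by each array's 75th percentile, as a comparison showed. Each of its columns matches a different replicate's scanner file within the group (r = 1.00), and replicate numbers follow the scanner files.

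Values were log2 intensity minus the array's 75th percentile over 61657 probes. Kept were 42036 probes that had no outlier flag and stood well above background throughout at least 1 group. Accessions were matched to RefSeq names on GRCr8 (27460 probes, 15284 symbols), and the brightest kept probe stood for a gene. Groups were compared with limma 3.58.1 in R 4.3.3 (lmFit, eBayes, no covariates, Benjamini-Hochberg over 31087 genes), with intervals on 6.11 degrees of freedom. The fit was tested on simulated data. The number of arrays limits the precision.

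The members and lists were chosen with earlier results of these data known. By the rule for named genes, values per array are given in each role group for the 2 largest changes up and down and the smallest p, and each further list gives its gene of smallest p. Other genes, such as the C1q chains, Cd40 and Il1b, were named after their values were seen. Normexp used the median spot signal in place of the planned mean. Other alternatives were quantile normalization, the authors' table, filters on dim probes, the mean of probes, the variance model, the slide, the replicate number as a block and each array left out.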

Additional observations from a re-analysis of the deposited data

How the results depend on the processing

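No member passed the threshold under any of 16 alternatives, 480 fits of a member in all, and the median log2 change of the members ran from -0.14 to 0.20. The sign was the same under all 16 for 13 members, among them S100a8, S100a9, Cd14, Cd74, Ctss and Aif1. It differed in at least 1 for the other 17. Part of the 16 did not move the estimates. The filters on dim probes, the variance model and the replicate block left the members' median at its main value of -0.02. The authors' table, which holds the same intensities, gave -0.02 too. The slide block gave the same estimates as the slide with both groups. The number of members whose groups did not overlap was 4 higher and 1 lower. It was 11 higher and 7 lower on the slide that held both groups, where 1 treated array stands against 3 controls and 25.2% and 31.7% of all genes do not overlap. With the mean of all kept probes 0 were lower, since the 3 probes of Aif1 differ. Leaving out each array gave 4 to 9 higher and 1 to 7 lower. The replicate number as a block gave S100a9 an adjusted p of 0.129 and S100a8 one of 0.255, and called 0 members. The labels link same-numbered arrays by the number only. Correlations of their deviations from the group means over all genes were between 0.01 and 0.08, and those of differently numbered arrays between -0.05 and 0.03. With the replicate block the SE of C1qb fell from 0.20 to 0.10, while that of Mrc1 stayed at 0.22. Whether same-numbered arrays share more was not tested. Normexp moved the log2 change of S100a8 to 0.97. No scaling moved the median of all genes by more than 0.1. Signal over background limited Itgam and Marco, which could not be tested.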
